A study of Homo sapiens with 2 samples.

Results

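The expression of 10 nuclear genes whose proteins stabilise, process or degrade the RNAs of human mitochondria was measured at the level of single transcripts in HEK293 cells. The genes LRPPRC, SLIRP, GRSF1, FASTKD2, FASTKD5, TBRG4, ELAC2, MTPAP, PNPT1 and SUPV3L1 were taken by name, by a rule that uses no measured value, although earlier results of these data were known. They are 10 of 59026 genes that could be matched to the transcript tables. Total RNA was depleted of rRNA and sequenced from HEK293 Flp-In T-Rex cells, an established human embryonic kidney line with a single site for insertion of a tetracycline-controlled transgene. The labels list no treatment. The 2 libraries formed 1 group, and the labels do not say whether they came from separate cultures, so the spread given here may be technical. Replicate 1 held 25158962 estimated counts and replicate 2 held 27143860.

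Mitochondrial DNA is transcribed into long polycistronic RNAs, from which mRNAs, rRNAs and tRNAs are cut out. The tRNAs that lie between the other genes mark most of the cutting sites, and an endonuclease on each side releases them. The mRNAs then receive short poly(A) tails, are held stable by RNA-binding proteins, and are finally degraded by a complex of a helicase and an exoribonuclease in the matrix. Parts of this pathway take place in mitochondrial RNA granules, which lie close to the mitochondrial DNA.

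Together the 10 genes reached 23179 normalised counts in replicate 1, against 20919 in replicate 2, where a normalised count is the estimated count of the authors divided by 1 size factor per library. This was 0.0871% and 0.0831% of all estimated counts. At the level of genes the libraries differed little. The log2 difference (replicate 2 minus replicate 1) was between -0.35 for LRPPRC and 0.26 for TBRG4, with a median of -0.26 over the 10 genes and of -0.06 over all genes that averaged 10 or more. None of the 10 genes differed by more than 2-fold, against 5.76% of those genes and 0.286% of the 7333 genes whose mean lay within the range of the 10. Of the 10 genes, 7 were higher in replicate 1, as were 13 of 21 other genes of mitochondrial RNA metabolism. The share of all genes higher in replicate 1 was not counted. Transcripts differed more. Of the 65 transcripts of the 10 genes that averaged 10 or more normalised counts, 17 (26.2%) differed by more than 2-fold, 9 of them higher in replicate 2, against 30.6% of all such transcripts.

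**Figure D1:**
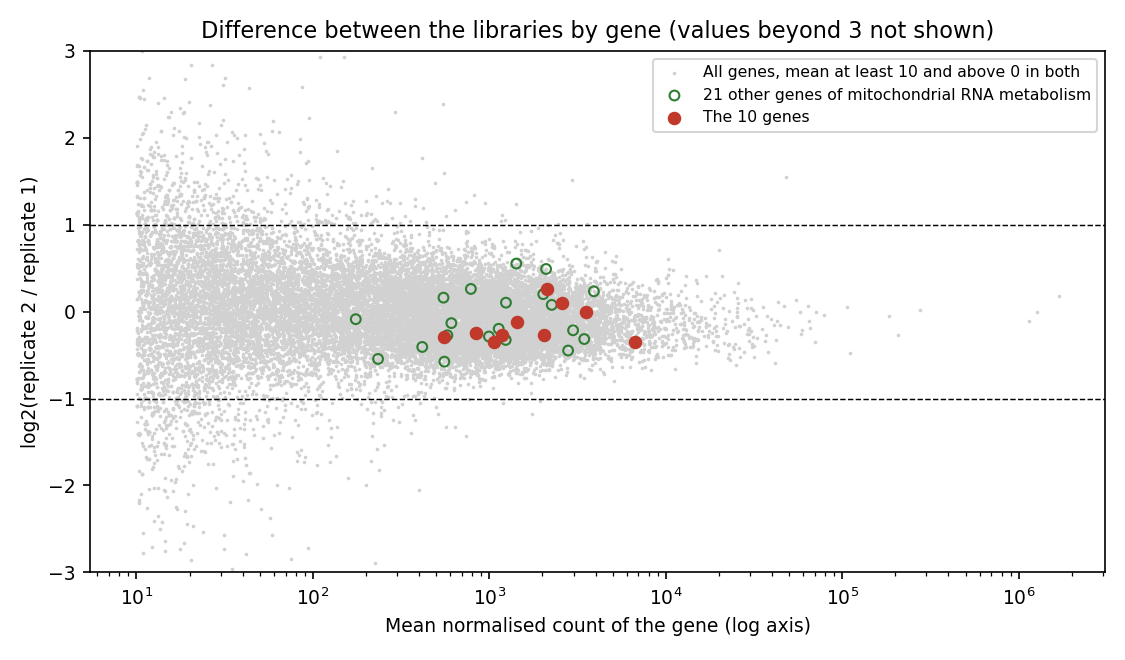
Log2 ratio of replicate 2 to replicate 1 (vertical axis) against the mean normalised count (horizontal log axis) for genes with a mean of at least 10 that are above 0 in both libraries (grey), the 10 genes (red) and 21 other genes of mitochondrial RNA metabolism (green rings). All 10 genes lie between the dashed lines at a 2-fold difference, from -0.35 to 0.26.

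Genes can be compared only per length. The estimated count of each transcript was divided by its length in GENCODE v44, the results were scaled to 1000000 per library, and the transcripts of a gene were added up; this is called the level per length below. SLIRP had the highest level of the 10 genes, 135 ± 20.5, and FASTKD2 the lowest, 6.94 ± 1.37 (SD, n = 2 each). Ranked among 26370 genes that reached 1 normalised count or more in each library, SLIRP exceeded 98.2% and FASTKD2 66.7%. The median level of the 10 genes was 36.4, and that of the 26370 genes was 1.87.

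From the top, the order of the levels per length was SLIRP, ELAC2, GRSF1, LRPPRC, TBRG4, SUPV3L1, MTPAP, PNPT1, FASTKD5 and FASTKD2. A pair of genes was called different when the order was alike in each library and the means differed by more than the sum of the SDs. Of the 45 pairs, 41 met this. How often pairs of other genes meet it was not counted, so 41 of 45 cannot be called many or few. The neighbours GRSF1 and LRPPRC, LRPPRC and TBRG4, SUPV3L1 and MTPAP, and PNPT1 and FASTKD5 did not differ beyond their spread.

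This order rests partly on short transcripts, because few counts on a short model give a high level and no correction for fragment length was made. As a second measure, all counts of a gene were divided by the length of its MANE Select transcript, the reference transcript chosen jointly by Ensembl and RefSeq. SLIRP stayed highest and FASTKD2 lowest, with 3150 ± 416 and 82.1 ± 11.6 normalised counts per kb (SD, n = 2 each). The MANE Select transcript of FASTKD2 has 6712 nt but held only 5.38% and 17.9% of its counts, and a transcript of 2344 nt led. This choice of length therefore lowers the value of FASTKD2. GRSF1 moved from the third place to the sixth, and with protein-coding transcripts only it was in the seventh, with a level per length of 15.02 ± 1.66 (SD, n = 2) in place of 54.5 ± 3.54 (SD, n = 2). With MANE Select lengths LRPPRC moved from the fourth place to the second. The levels of LRPPRC, TBRG4 and ELAC2 then lay close together, at 1017 ± 172, 952 ± 122 and 939 ± 0.287 per kb (SD, n = 2 each), and these neighbours did not differ beyond their spread.

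**Figure D2:**
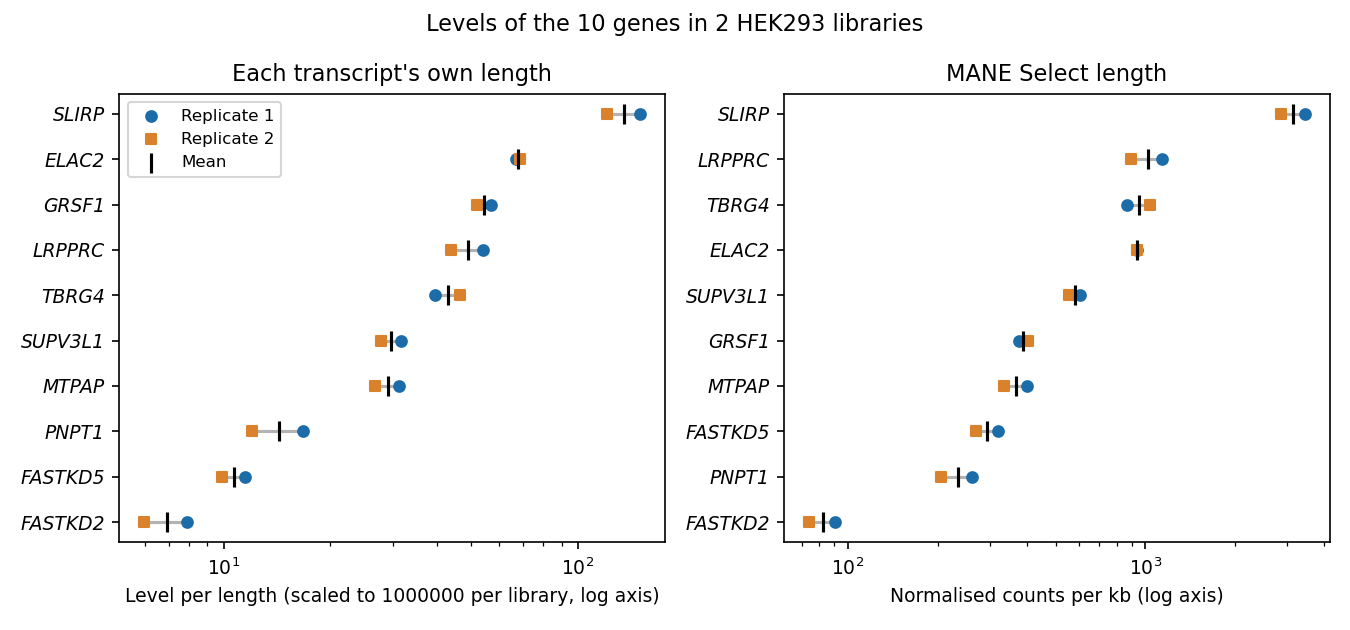
Levels of the 10 genes in replicate 1 (circles) and replicate 2 (squares) with their mean (bars), on log axes. With each transcript's own length (left, scaled to 1000000 per library) and with the MANE Select length (right, normalised counts per kb) SLIRP is highest and FASTKD2 lowest, while GRSF1 is in the third place on the left and in the sixth on the right.

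The leading transcript, the one with the most estimated counts, was the same in both libraries in 8 of the 9 genes with several listed transcripts and differed in GRSF1. FASTKD5 has only 1 listed transcript. Among the 16735 genes with several transcripts that reached 1 normalised count or more in each library it differed in 21.5%, and in 13.5% of genes with several transcripts and a mean within the range of the 10. The MANE Select transcript led in LRPPRC, FASTKD5, TBRG4, MTPAP and SUPV3L1, and another transcript led in the remaining 5 genes. How often the MANE Select transcript leads over all genes was not counted. The tables list 92 transcripts of the 10 genes, of which 9 were at 0 in both libraries and 15 in 1 library. A mean share of at least 5% of the gene was reached by 27 transcripts.

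**Figure D3:**
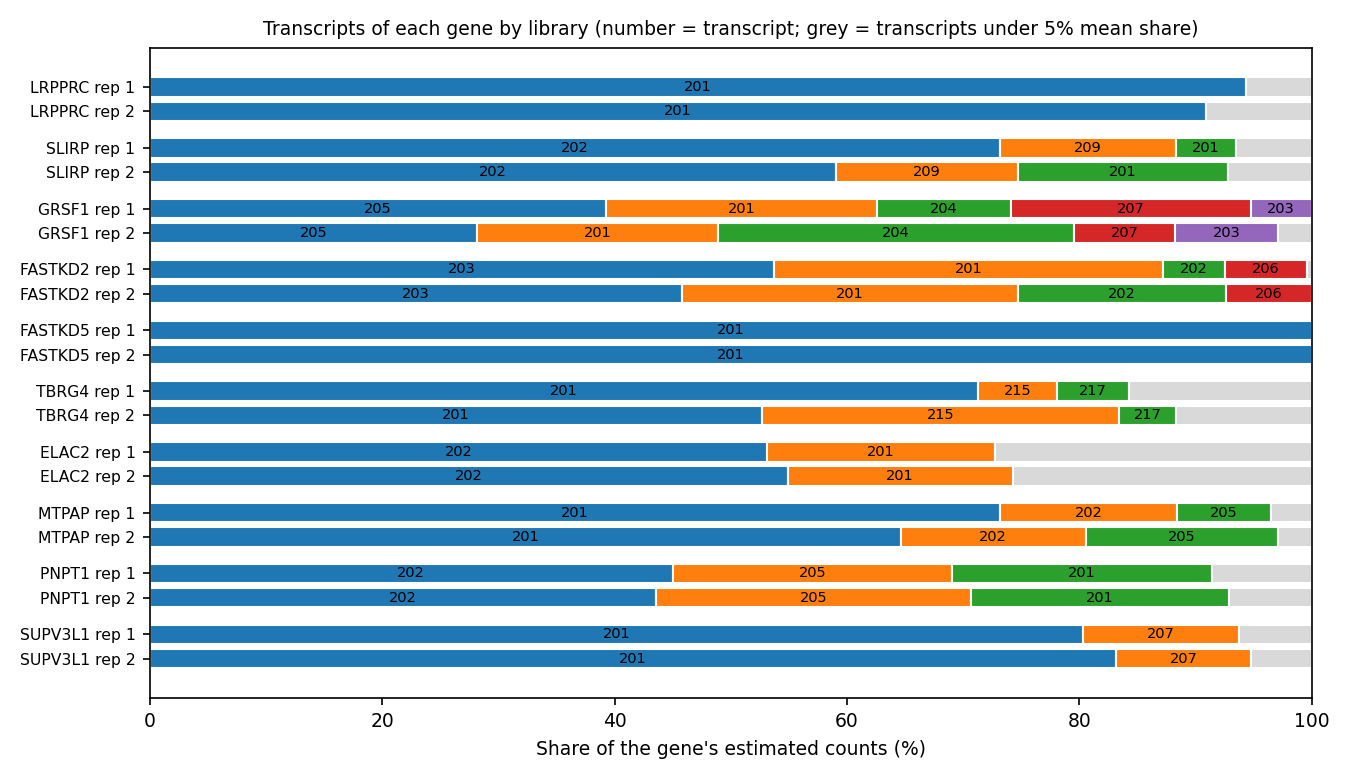
Share of each gene's estimated counts (horizontal axis, %) held by its transcripts, with a bar for each library; coloured segments carry the transcript number and grey stands for all transcripts with a mean share under 5%. LRPPRC and FASTKD5 are nearly one colour, while GRSF1 is divided among 5 transcripts whose sizes differ between the libraries.

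LRPPRC and SLIRP form a complex that binds mitochondrial mRNAs, protects them and promotes their polyadenylation. LRPPRC (chromosome 2, 43886224 to 43996226, minus strand) is a large pentatricopeptide repeat protein. Its normalised count was 7522 in the first library and 5912 in the second, on average 6717 ± 1139 (SD, n = 2), the most of the 10 genes. Its level per length was 54.1 and 43.9. Nearly all counts were on LRPPRC-201 (ENST00000260665.11), which had 94.3% (95% exact interval 93.8 to 94.9%) in replicate 1 and 90.9% (90.2 to 91.6%) in replicate 2. This transcript codes for the reference protein of 1394 amino acids. The other 8 listed transcripts each had a mean share under 5%, although GENCODE v44 holds 71 transcripts of LRPPRC against the 9 in the tables. Exons of LRPPRC models overlap 21 bases of the lncRNA ENSG00000288707 on the opposite strand, 5 of them in LRPPRC-201. No counts were listed for that lncRNA.

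SLIRP (chromosome 14, 77708071 to 77761104, plus strand) is a small RNA-recognition-motif protein. It had normalised counts of 1295 and 1074, on average 1184 ± 157 (SD, n = 2). Its level per length was 149.96 in replicate 1 and 121 in replicate 2, and in each library it was the highest of the 10 genes. Compared with LRPPRC, SLIRP was 2.76-fold higher per length. The log2 ratio of LRPPRC to SLIRP was -1.47 in replicate 1 and -1.46 in replicate 2, and with MANE Select lengths it was -1.60 and -1.67. Without division by length the ratio had the opposite sign, 2.50. The reference transcript of LRPPRC has 6603 nt and that of SLIRP 376 nt.

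Most SLIRP counts were not on the reference transcript. SLIRP-202 (ENST00000553981.1) held 73.1% (70.5 to 75.6%) in replicate 1 and 59.0% (56.1 to 61.8%) in replicate 2. Its model is 285 nt long and incomplete at the start. All of its bases also lie in SLIRP-209 (ENST00000557342.5), the MANE Select transcript. SLIRP-202 differs from SLIRP-209 by 16 bases missing at the end of exon 2 and by the missing start. The annotated coding part of SLIRP-202 has 56 amino acids, against 109 in SLIRP-209. SLIRP-209 held 15.1% (13.2 to 17.2%) and 15.7% (13.6 to 17.9%). SLIRP-201 (ENST00000238688.9) was higher in replicate 2, with 194 normalised counts against 67.1, or 18.1% against 5.18%. It lacks the first 6 bases of the last exon and codes for 107 amino acids in place of 109. The stretches that tell these transcripts apart are shown on the plus strand of GRCh38, at chr14:77710867-77710896 for exon 2 and chr14:77717484-77717513 for the last exon. Capitals mark the bases that SLIRP-209 keeps, which SLIRP-202 skips in exon 2 and SLIRP-201 skips in the last exon.
SLIRP exon 2 end: ggccatgtcagaagGTGCATTTTACCTTTT
SLIRP last-exon start: tatttttttaagGTCCAGgttcacactaga
Exons of SLIRP models overlap 118 bases of SNW1 on the opposite strand, which held 1837 ± 325 normalised counts (SD, n = 2), and 271 bases of C14orf178 on the same strand, which held 0 and 3.45. None of these bases are in SLIRP-209. The processed pseudogenes SLIRPP1 and SLIRPP2 held at most 1.07 normalised counts in either library.

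GRSF1, FASTKD2, FASTKD5 and TBRG4 code for proteins of the mitochondrial RNA granules. GRSF1 (chromosome 4, 70815783 to 70839897, minus strand) binds G-rich RNA and takes part in RNA processing, mitoribosome assembly and, with the degradosome, in the removal of antisense RNA. It had normalised counts of 2475 and 2659, on average 2567 ± 130 (SD, n = 2), and a level per length of 57.0 and 52.0. Its transcripts were the most divided of the 10 genes. GRSF1-205 (ENST00000506453.1), annotated for nonsense-mediated decay, led in replicate 1 with 39.3% (37.3 to 41.3%) and had 28.1% (26.5 to 29.8%) in replicate 2. GRSF1-204 (ENST00000505068.5), annotated as retained intron, led in replicate 2 with 30.7% (29.0 to 32.4%) and had 11.6% (10.3 to 12.9%) in replicate 1. GRSF1-201 (ENST00000254799.10), the MANE Select transcript, held 23.3% (21.6 to 25.1%) and 20.7% (19.2 to 22.2%).

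The remaining GRSF1 transcripts over 5% also differed between the libraries. GRSF1-207 was lower in replicate 2, with 232 normalised counts against 511, and GRSF1-203 was higher, with 234 against 130. With GRSF1-202, these make up the protein-coding models other than the reference. All protein-coding models of GRSF1 together came to 49.2% and 41.2%. Counted per length, protein-coding models held 27.5% ± 1.27 and GRSF1-205 alone 61.8% ± 6.57 (SD, n = 2 each). GRSF1-205 has 925 nt, all of them shared with GRSF1-201, and lacks exon 5 of that transcript (136 nt, chr4:70831539-70831674). It can be told from GRSF1-201 only by the junction of exon 4 to exon 6. GRSF1-204 keeps the intron of 692 nt between exon 7 and exon 8 (chr4:70825432-70826123).

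These junctions are shown in the sense of GRSF1, on the minus strand of GRCh38, with the end of the upstream exon in capitals. Exon 4 ends at chr4:70832307-70832321, exon 5 begins at chr4:70831660-70831674 and exon 6 at chr4:70828022-70828036. Exon 7 ends at chr4:70826124-70826138, from where GRSF1-201 goes on at chr4:70825417-70825431 and GRSF1-204 reads on into the intron, to 70826109.
GRSF1-201 exon 4 to exon 5: TAGACTTCTTTGCAGgactgaatatagttg
GRSF1-205 exon 4 to exon 6: TAGACTTCTTTGCAGatacatcgagatatt
GRSF1-201 exon 7 to exon 8: CAAGACATTATAAACttttttgctccactc
GRSF1-204 exon 7 into the kept intron: CAAGACATTATAAACgtgtgtggcagtaag

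The coding models of GRSF1 also differ at the start. GRSF1-201 codes for 480 amino acids from a start codon in exon 1, and GRSF1-203 for 318 amino acids from a start codon in exon 2. As the N-terminus of the longer protein carries the mitochondrial targeting sequence, the coding starts are shown here from the ATG in capitals, on the minus strand at chr4:70839798-70839827 for GRSF1-201 and from 70836185 down to 70836158, followed by the first bases of exon 3 at 70833273 and 70833272, for GRSF1-203.
GRSF1-201 coding start: ATGgccggcacgcgctgggtactcggggcg
GRSF1-203 coding start: ATGgaagatgtgcttaactttttttcagac
GRSF1-203 was the smaller of the pair in both libraries, with 5.26% (4.39 to 6.24%) and 8.82% (7.81 to 9.92%). The model of GRSF1-207, with 416 amino acids, is incomplete at the start, so its N-terminus is not known from the annotation.

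The FASTK family members share a C-terminal RAP domain and act on single mitochondrial RNAs or on ribosome assembly. FASTKD5 (chromosome 20, 3146519 to 3159865, minus strand) is needed for the maturation of mRNAs that are not flanked by tRNAs. It had normalised counts of 908 and 765, on average 836 ± 101 (SD, n = 2), and a level per length of 11.5 and 9.89. The tables list a single transcript of FASTKD5, FASTKD5-201 (ENST00000380266.3), so no division among transcripts could be seen, although GENCODE v44 holds 5. Its exons share 100 bases with exons of UBOX5 on the same strand, which held 426 ± 74.5 normalised counts (SD, n = 2), so counts from these bases can belong to either gene.

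FASTKD2 (chromosome 2, 206765357 to 206796189, plus strand) takes part in assembly of the large mitoribosomal subunit. It had normalised counts of 606 and 496, on average 551 ± 77.9 (SD, n = 2), and a level per length of 7.90 and 5.97. Per length it was below FASTKD5 in both libraries, and the difference was larger than the spread. FASTKD2-203 (ENST00000403094.3) led with 53.7% (49.6 to 57.9%) and 45.8% (41.5 to 50.1%), followed by FASTKD2-201 with 33.5% and 29.0%. The MANE Select transcript FASTKD2-202 was higher in replicate 2, with 88.6 normalised counts against 32.6, or 17.9% (14.8 to 21.5%) against 5.38% (3.71 to 7.59%). All 3 code for the same protein of 710 amino acids and differ in the first exon and in the length of the 3-prime UTR, with transcript lengths of 2344, 3188 and 6712 nt. They held together 92.6% of the FASTKD2 counts in each library. The remaining share was almost entirely on FASTKD2-206, a retained-intron transcript with 6.98% and 7.40%.

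TBRG4, also known as FASTKD4, stabilises a subset of mitochondrial mRNAs. TBRG4 (chromosome 7, 45100100 to 45112047, minus strand) had normalised counts of 1928 and 2313, on average 2120 ± 272 (SD, n = 2), and a level per length of 39.6 and 46.5. It was the FASTK family member with the highest level in both libraries. TBRG4-201 (ENST00000258770.7), the MANE Select transcript, held 71.3% (69.2 to 73.4%) in replicate 1 and 52.7% (50.7 to 54.7%) in replicate 2. TBRG4-215 (ENST00000494076.5) was higher in replicate 2, with 711 normalised counts against 130, or 30.7% (28.9 to 32.6%) against 6.74% (5.64 to 8.002%). This was the largest difference between the libraries among the 27 transcripts that averaged 5% or more of their gene, of which 5 differed by more than 2-fold. Transcripts of all genes were not counted at this 5% limit, so 5 of 27 cannot be called many or few. TBRG4-215 shares 2181 of its 2190 bases with TBRG4-201 and codes for the same protein of 631 amino acids, so that the sum of both was closer, at 78.0% and 83.4%. Retained-intron transcripts held 14.2% and 12.3% of TBRG4, with TBRG4-217 as the largest of them. TBRG4 is the host gene of H/ACA box snoRNAs, and TBRG4 models overlap 132 bases of SNORA5B, which held 0 and 0.909 normalised counts.

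Set beside the rest of the family, FASTK had a level per length of 33.5 ± 8.06, FASTKD3 of 9.68 ± 2.65 and FASTKD1 of 9.35 ± 1.16 (SD, n = 2 each). The mean of each lay between those of FASTKD2 and TBRG4.

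ELAC2 is the mitochondrial and nuclear RNase Z, which cuts tRNAs from their precursors at the 3-prime end. ELAC2 (chromosome 17, 12991612 to 13018065, minus strand) had a normalised count of 3535 in the first library and 3537 in the second, on average 3536 ± 1.08 (SD, n = 2), the smallest SD of the 10 genes. Its level per length was 67.0 and 68.5. ELAC2-202 (ENST00000395962.6) led with 53.1% (51.4 to 54.8%) and 54.9% (53.3 to 56.5%). ELAC2-201 (ENST00000338034.8), the MANE Select transcript, held 19.6% (18.3 to 20.99%) and 19.4% (18.1 to 20.7%). The share of each of the pair differed between the libraries by less than the width of its interval.

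ELAC2-202 codes for 807 amino acids and ELAC2-201 for 826. The difference of 57 coding bases lies around the first intron, where ELAC2-202 lacks 34 bases at the end of exon 1 and 23 at the start of exon 2, so that 19 amino acids are left out in the N-terminal part. No base is present in ELAC2-202 only. The first intron of ELAC2-201 begins with GT and ends with AG, whereas that of ELAC2-202 begins with GC. The junctions are shown on the minus strand with the end of exon 1 in capitals, joining chr17:13017703-13017717 to chr17:13017107-13017121 for ELAC2-201 and chr17:13017737-13017751 to chr17:13017084-13017098 for ELAC2-202.
ELAC2-201 exon 1 to exon 2: CTCCGAGTTCAACCGgtatctcttcaactg
ELAC2-202 exon 1 to exon 2: GTAGCCGGGACTCGGgcgttcagagactca
The start of exon 2 in ELAC2-201, at chr17:13017092-13017121, is shown with the bases that ELAC2-202 skips in capitals.
ELAC2 exon 2 start: GTATCTCTTCAACTGTGGAGAAGgcgttca
The other ELAC2 transcripts each had a mean share under 5%, and retained-intron models summed to 11.5% and 13.96%. Of the other transcripts, ELAC2-219, a protein-coding model incomplete at the end, differed between the libraries. It had 271 normalised counts in replicate 1 against 60.5 in replicate 2. Its share was 7.66% (6.78 to 8.62%) and 1.71% (1.32 to 2.17%). ELAC2-212, also a protein-coding model, had no count in replicate 1, where 3 counts would make 0.0898% of the gene, and 3.80% in replicate 2. The exons of ELAC2-201 overlap ARHGAP44 on the opposite strand by 32 bases, a gene with 748 ± 16.9 normalised counts (SD, n = 2).

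MTPAP is the mitochondrial poly(A) polymerase. MTPAP (chromosome 10, 30309801 to 30374448, minus strand) had normalised counts of 2227 and 1855, on average 2041 ± 263 (SD, n = 2), and a level per length of 31.3 and 26.8. MTPAP-201 (ENST00000263063.8), the MANE Select transcript, held 73.2% (71.2 to 75.0%) in replicate 1 and 64.6% (62.5 to 66.7%) in replicate 2. MTPAP-202 (ENST00000417581.1) held 15.2% (13.7 to 16.9%) and 15.9% (14.3 to 17.6%). It has another first exon and its annotated start codon lies in the next exon, so its protein would lack the N-terminus, but its model is incomplete at the end. As that part of mitochondrial enzymes carries the targeting sequence, both coding starts are shown on the minus strand, at chr10:30349246-30349275 and chr10:30341573-30341602, with the ATG in capitals.
MTPAP-201 coding start: ATGgcggttcccggcgtggggctcttgacc
MTPAP-202 coding start: ATGcaaaatgaaagacgagaacaggcacag
Per length, MTPAP-202 held 48.8% ± 1.10 and MTPAP-201 31.7% ± 3.04 (SD, n = 2 each), an order opposite to that of the counts. The models have 816 and 5560 nt. MTPAP-205, a transcript of 17 exons with no defined coding sequence, had 8.05% (6.90 to 9.27%) in replicate 1 and 16.5% (14.9 to 18.3%) in replicate 2. Of its 4103 bases, 1912 lie outside MTPAP-201, and MTPAP models overlap 1626 exon bases of the pseudogene GOLGA2P6, which was listed at 0, as were the other overlapping genes MIR7162 and ENSG00000285824.

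PNPT1 and SUPV3L1 form the mitochondrial degradosome. PNPT1, the polynucleotide phosphorylase PNPase, degrades RNA from the 3-prime end, and SUPV3L1 is the helicase that unwinds its substrates. SUPV3L1 (chromosome 10, 69180234 to 69209099, plus strand) had normalised counts of 1492 and 1374, on average 1433 ± 83.2 (SD, n = 2), and a level per length of 31.6 and 27.8. PNPT1 (chromosome 2, 55634061 to 55693863, minus strand) had 1191 and 936, on average 1063 ± 180 (SD, n = 2), and a level per length of 16.7 and 12.02. SUPV3L1 was 2.07-fold higher than PNPT1 per length, a difference larger than the spread. The log2 ratio of PNPT1 to SUPV3L1 was -0.92 in replicate 1 and -1.21 in replicate 2, and that of the means was -1.31 with MANE Select lengths. Without division by length it was -0.43, or 1.35-fold more normalised counts for SUPV3L1. The processed pseudogene PNPT1P1 held 12.2 and 16.0 normalised counts and PNPT1P2 was at 0.

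SUPV3L1-201 (ENST00000359655.8), the MANE Select transcript, held 80.3% (78.2 to 82.4%) and 83.2% (81.2 to 85.1%) of SUPV3L1. SUPV3L1-207, with 2 exons and no defined coding sequence, held 13.4% (11.7 to 15.3%) and 11.6% (10.0 to 13.3%). Per length its share was 32.9% ± 1.91 (SD, n = 2), on a model of 666 nt.

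In PNPT1, transcripts annotated for nonsense-mediated decay made up 73.0% and 69.6%. PNPT1-202 (ENST00000415374.5) led with 44.98% (42.0 to 47.9%) and 43.5% (40.5 to 46.7%). PNPT1-205 (ENST00000447944.6), the MANE Select transcript, held 24.1% (21.6 to 26.7%) and 27.1% (24.4 to 30.01%). PNPT1-201 (ENST00000260604.8) held 22.4% (20.0 to 25.0%) and 22.2% (19.8 to 25.0%). These shares were close in both libraries.

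PNPT1-202 has the same coding sequence as PNPT1-205, for 783 amino acids. It differs by shorter ends and by an intron of 712 nt (chr2:55634850-55635561) that is removed 678 nt after the coding sequence and begins with GC. All of its 3308 bases are in PNPT1-205, and GENCODE v44 gives it support level 5, against 1 for PNPT1-205. Level 5 is also that of PNPT1-201 and, among other transcripts named here, of FASTKD2-203, MTPAP-202 and GRSF1-201. Together PNPT1-202 and PNPT1-205 held 69.0% and 70.7% of PNPT1. PNPT1-201, in contrast, keeps the intron of 95 nt between exon 6 and exon 7 (chr2:55680760-55680854), and its annotated coding sequence ends 20 bases into it, after 179 amino acids. The minus strand is shown at chr2:55680829-55680858 for PNPT1-201, with the stop codon in capitals, and for PNPT1-205 at the junction of chr2:55680855-55680869 to chr2:55680745-55680759, with the end of exon 6 in capitals.
PNPT1-201 exon 6 into the kept intron: ggcggtaagtataaaagtagagatTAAaat
PNPT1-205 exon 6 to exon 7: TAGCAATTAATGGCGcttccgtagccctct

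Across the 10 genes, 7 had most of their counts on transcripts with the coding sequence of the MANE Select transcript, whatever their annotated class. The other 3 did not. This was not counted over all genes, so 7 of 10 cannot be called many or few. The share on this coding sequence was 100% in FASTKD5, 92.6% ± 2.42 in LRPPRC, 92.6% ± 0.0207 in FASTKD2, 81.8% ± 2.02 in SUPV3L1, 80.7% ± 3.80 in TBRG4, 69.9% ± 1.14 in PNPT1 and 68.9% ± 6.04 in MTPAP (SD, n = 2 each). It was 22.01% ± 1.82 in GRSF1, 19.5% ± 0.149 in ELAC2 and 15.4% ± 0.359 in SLIRP (SD, n = 2 each). In ELAC2 and SLIRP the other counts were mainly on further protein-coding models, with 66.0% ± 0.874 and 82.3% ± 1.07 (SD, n = 2 each). The largest of these models in SLIRP was SLIRP-202, annotated with only 56 amino acids. In GRSF1 the other counts were mainly on models for nonsense-mediated decay, retained introns and other proteins. Per length, 6 of the 10 genes had most of their level on transcripts with this coding sequence, by the mean of both libraries. The share was then 31.7% ± 3.04 in MTPAP, 51.6% ± 4.41 in PNPT1, 5.71% ± 0.261 in GRSF1 and 9.83% ± 0.107 in ELAC2 (SD, n = 2 each). In PNPT1 it was 48.5% in replicate 1 and 54.7% in replicate 2, so the libraries fall on different sides for this gene.

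**Figure D4:**
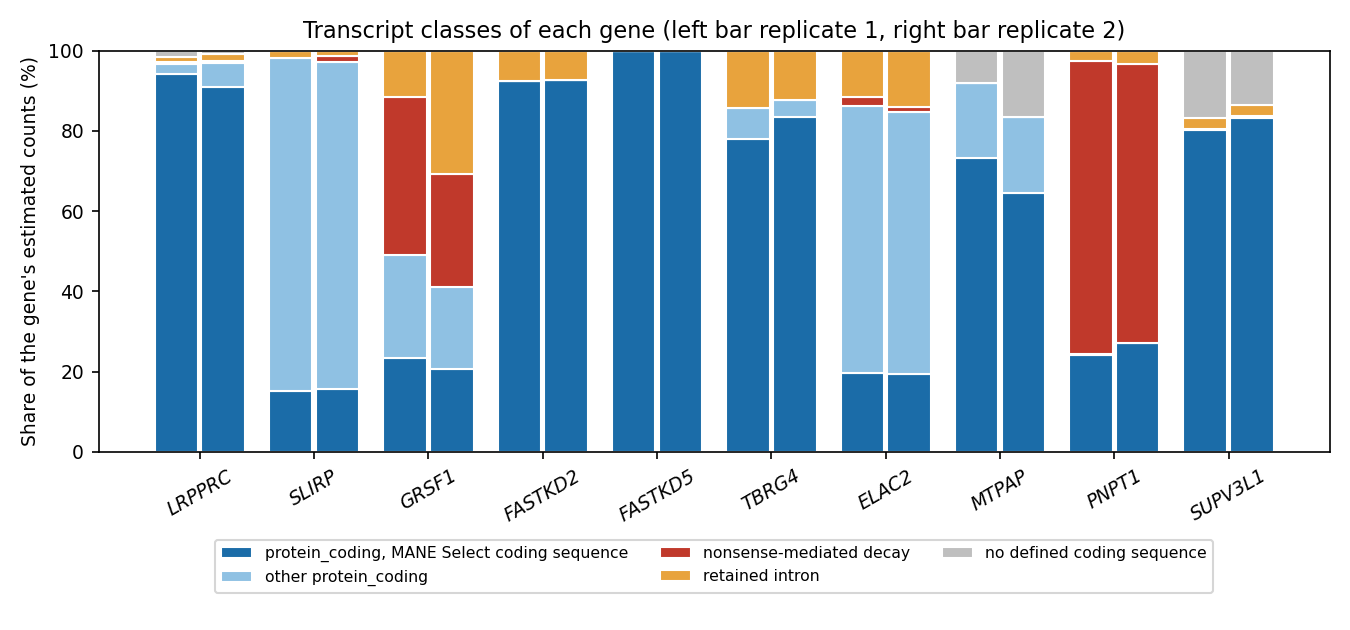
Share of each gene's estimated counts (vertical axis, %) by annotated transcript class, with replicate 1 as the left bar and replicate 2 as the right bar of each gene. Dark blue, the protein_coding transcripts with the MANE Select coding sequence, fills most of LRPPRC, FASTKD2, FASTKD5, TBRG4, MTPAP and SUPV3L1, whereas red, for nonsense-mediated decay, fills 73.0% and 69.6% of PNPT1.

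The 10 genes were set beside 21 other genes of mitochondrial RNA metabolism, among them the family members above, further pentatricopeptide repeat proteins, subunits of mitochondrial RNase P, nucleases and pseudouridine synthases. Their levels per length ran from 5.50 to 89.4 with a median of 15.2, against 36.4 for the 10 genes. The highest were HSD17B10, a subunit of mitochondrial RNase P, with 89.4 ± 4.55, PTCD3, a protein of the small mitoribosomal subunit, with 87.6 ± 15.6, and RPUSD3, a pseudouridine synthase, with 65.2 ± 6.14 (SD, n = 2 each). With MANE Select lengths HSD17B10 stayed highest, with 2367 ± 89.4 normalised counts per kb (SD, n = 2). NGRN came next with 2226 ± 234, then RPUSD3 with 1660 ± 163, while PTCD3 fell to 516 ± 79.5 (SD, n = 2 each). SLIRP was above all 21 by both measures. The lowest per length were PTCD2 with 5.50 ± 0.434, MTRES1 with 5.86 ± 0.339 and PTCD1 with 6.74 ± 0.165 (SD, n = 2 each), and FASTKD2 lay near them. With MANE Select lengths PTCD2 stayed lowest, with 54.6 ± 3.54 per kb. TRUB2 with 101 ± 7.95 and PDE12 with 129 ± 12.5 then came next (SD, n = 2 each). None of the 21 genes differed by more than 2-fold between the libraries. Their log2 differences ran from -0.58 to 0.55 with a median of -0.20, and 13 were higher in replicate 1.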

How the data were processed

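RNA-seq of rRNA-depleted total RNA was deposited for 1 group of 2 libraries of HEK293 Flp-In T-Rex cells, made with TruSeq. The authors deposited an estimated count per transcript, made with RSEM, which divides reads among transcripts they fit. The deposited normalised signal is this count divided by a size factor, 0.945 for replicate 1 and 1.08 for replicate 2. The submitters' processing notes name STAR 2.7.0d, RSEM 1.3.3 and R 3.6.3; the study names GRCh38. The strand setting was not given in the sources used here.

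Identifiers without version matched GENCODE v44 (GRCh38) for 202217 of 206696 transcripts, with 96.9% and 96.8% of the counts. Of the 92 transcripts of the 10 genes, 17 had another version there, including all MANE Select transcripts, so their lengths and exons may differ from those counted. Sequences are from the GRCh38 genome at GENCODE v44 coordinates. The METTL8 tables, a subset of the full tables, were not used.

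With 1 group no test was possible: values are means ± SD over 2 libraries. Exact (Clopper-Pearson) 95% intervals used rounded counts, and the limit for a transcript at 0 is 3 counts; both cover counting error only. Across genes, which are not independent replicates, the libraries had a Pearson's r of 0.983 on a log2 scale (pseudocount 1), and a chi-square statistic 21.5 times its degrees of freedom, above sampling noise. Python 3.11.15, scipy 1.17.1 and edgeR 4.0.16 (TMM factors as an alternative) were used.

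The genes and lists were chosen with earlier results of these data known. Named were the 10 genes, their transcripts that averaged 5% or more of the gene, genes with overlapping exons, and the 3 highest and 3 lowest per length of the 21 other genes. FASTK, FASTKD1, FASTKD3, GRSF1-202, ELAC2-212, ELAC2-219 and the pseudogenes were named after their values were seen. So were NGRN, TRUB2 and PDE12, which were named from the ranking with MANE Select lengths. With 2 libraries no gene can be named for a similar pattern.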

Additional observations from a re-analysis of the deposited data

How the results depend on the processing

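The MANE Select length and the TMM factors were chosen after seeing the data. Without division by length, the log2 ratio of LRPPRC to SLIRP was 2.50 in place of -1.47. Leaving out replicate 1 or replicate 2 gave -1.46 and -1.47 for this ratio, -1.21 and -0.92 for PNPT1 to SUPV3L1, 35.9 and 35.6 for the median level, 0.0831% and 0.0871% for the summed share and 7 each time for the genes with most counts on the reference coding sequence. With 2 libraries a mean lies midway between them, so these values say nothing about stability, and for the leading transcript and the 2-fold difference no value with 1 library exists. The summed share of the 10 genes was 0.103% when misc_RNA, snRNA and ribozyme transcripts were left out of the total and 0.0441% per length, in place of 0.0851%. With protein-coding transcripts only, the median level fell from 36.4 to 22.2, and PNPT1, at 2.60, became the lowest of the 10 genes, since its transcripts annotated for nonsense-mediated decay, 75.7% of its level per length, were left out with the retained intron; GRSF1 went from 54.5 to 15.02, and the log2 ratio of PNPT1 to SUPV3L1 was -2.75, against -0.43 without division by length. The number of called pairs was between 39 and 43 under every alternative, but the order of 6 pairs with MANE Select lengths, 7 with protein-coding transcripts and 9 without length was the opposite. Of these, 2, 4 and 7 pairs were called different in each of the opposite orders. In the comparison of the libraries, GRSF1 changed direction per length and GRSF1 and ELAC2 with protein-coding transcripts only. No paired analysis was possible because there is only 1 group. Depth gave the 10 genes between 535 and 7109 estimated counts per library.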
